A study of Danio rerio with 4 samples.

Results

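The genes described here encode the laminins, nidogens and Fraser complex proteins of the basement membrane, and the integrins, the cell surface receptors that bind them and other matrix proteins. They were chosen by gene symbol, with earlier results of these data known, and 57 of the 31901 genes counted met the rule. These were 14 laminin chain genes, 3 nidogen genes, 5 Fraser complex genes and 35 integrin genes (22 alpha and 13 beta). Of the 57, 56 had enough reads for the test between genotypes. The exception was the integrin alpha gene *itga2.1* (ENSDARG00000069390), with 5 and 9 reads in the longfin heterozygous libraries and 0 and 2 in the wildtype libraries.

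Adult zebrafish (*Danio rerio*) had their caudal fins amputated, and RNA of the regenerating tips was sequenced 96 hours later. The mutant fish were *longfin* heterozygotes, which carry a dominant allele that overgrows the fins and which the study's title ties to the potassium channel gene *kcnh2a*, expressed where it normally is not, and the controls were wildtype clutchmates. Fish of both genotypes carried the sp7:eGFP transgene, which marks osteoblasts, and the tissue dissected was the GFP-negative tip beyond the marked cells. Each of the 2 libraries per genotype pooled the tips of 4 fins. Whether pools of the same genotype stem from different clutches is not stated, and the p-values therefore reflect the variation among these libraries alone.

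Basement membranes are thin sheets of matrix under epithelia and around vessels, nerve and muscle. Laminins, assembled from an alpha, a beta and a gamma chain, form one network of the sheet and collagen IV another, and nidogens link them. Fraser complex proteins anchor the sheet to the dermis below, and zebrafish embryos that lack *fras1* or its partners form blisters in the fin fold. Integrins pair an alpha with a beta subunit, and the pair sets which matrix protein the cell binds. In a regenerating fin the basement membrane lies between the wound epidermis and the blastema, the mesenchyme that forms the new fin.

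Reads in genes numbered 19428186 to 23157979 per library, and the members took 1.18 to 1.44% of them. Of the 2 genes with the symbol *KCNH2*, ENSDARG00000029881 had 7 and 21 reads in longfin heterozygous libraries against 0 and 1 in wildtype libraries, and ENSDARG00000106473 had 1 and 3 reads in longfin heterozygous libraries against 4 and 1 in wildtype libraries. Which of them is *kcnh2a* cannot be read from the symbol table. As a check of the dissection, the osteoblast gene *SP7* stood at 45.9 and 57.4 CPM (a count scaled to its library's total by TMM) in longfin tips and 45.4 and 56.1 CPM in wildtype tips. Its transcript was thus present in tissue taken as GFP-negative. Of 10 osteoblast marker genes 9 had reads. The highest was *COL10A1* (ENSDARG00000054753), at 1870 and 2200 CPM in longfin and 2020 and 2690 CPM in wildtype tips. The gene without reads in any of the 4 libraries was *bglap*, a gene of mature osteoblasts. Summed CPM over 21 mesenchyme marker genes was 62300 and 61600 in longfin and 57400 and 47200 in wildtype tips, and over 11 superficial epidermis marker genes it was 8730 and 9450 in longfin and 11400 and 12100 in wildtype tips. Neither sum overlapped between genotypes. The largest part of the mesenchyme sum was the single gene *col1a1a*, at 33000 and 31700 CPM in longfin and 30800 and 22300 CPM in wildtype tips. In bulk tissue, fewer cells of a type and less RNA per cell cannot be told apart.

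In longfin tips the nidogen gene *NID2* rose, and it was the 1 member past the threshold. Alongside it the second nidogen gene *NID1* (ENSDARG00000103129) and 4 laminin chain genes were higher by an unadjusted p under 0.05 in edgeR. The laminin genes were *lama4*, *LAMA5*, *LAMB1* (ENSDARG00000101209) and *lamc1*. Log2 fold changes of the nidogen gene and these 4 were 0.27 to 0.48 and did not pass adjustment. In each of them both longfin libraries were above both wildtype libraries. That held for 6 of the 14 laminin genes, and 39.8% of all genes tested do not overlap in either direction. By the same unadjusted measure 5 members were lower, also without passing adjustment. They were the laminin beta gene *lamb3*, the integrin alpha genes *itga6b*, *itga2.3* and *itgam.1*, and *ITGBL1*. All 5 had lower values in both longfin libraries than in both wildtype libraries. Over all genes tested, 3.65% were higher and 5.82% lower by an unadjusted p under 0.05. Across the 34 tested integrin genes the log2 fold changes ran between -1.97 and 0.49, with a median of 0.01. The -1.97 was that of *ITGBL1*, whose product is not a receptor subunit. It had 1 and 12 reads in longfin libraries and 18 and 35 reads in wildtype libraries. Among integrin alpha genes the lowest value was -0.62.

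Of the 56 tested members, 1 (1.79%) passed edgeR's quasi-likelihood test at an adjusted p of 0.05, against 0.403% of the 18366 genes tested. Unadjusted p-values under 0.05 were found for 11 members (19.6%), against 9.47% of all genes. They comprised 6 members higher in longfin (10.7%), against 3.65% of all genes, and 5 lower (8.93%), against 5.82% of all genes. Fold changes were above 0 for 36 members (64.3%), against 49.7% of all genes. The genotypes did not overlap in 23 members (41.1%), against 39.8% of all genes, a share near the background. The median log2 fold change was 0.03 over the members and 0.00 over all genes tested. It was 0.47 for nidogens, 0.20 for the Fraser complex, 0.15 for laminin alpha, 0.01 for integrin alpha, -0.01 for integrin beta and -0.02 for laminin beta genes. Several of these medians depended on single libraries. The Fraser complex median was -0.03 when longfin replicate 1 was left out and -0.05 when wildtype replicate 2 was. The laminin alpha median was 0.35 with longfin replicate 1 dropped, 0.29 with longfin replicate 2 dropped, and 0.39 and 0.10 when the library dropped was wildtype replicate 1 or 2. For laminin beta it was 0.20 with longfin replicate 1 left out and -0.21 with longfin replicate 2 left out. With 1 library left out, the median lay between 0.36 and 0.58 for nidogens, between -0.04 and 0.09 for integrin alpha, between -0.07 and 0.04 for integrin beta and between 0.00 and 0.10 over the members.

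**Figure D1:**
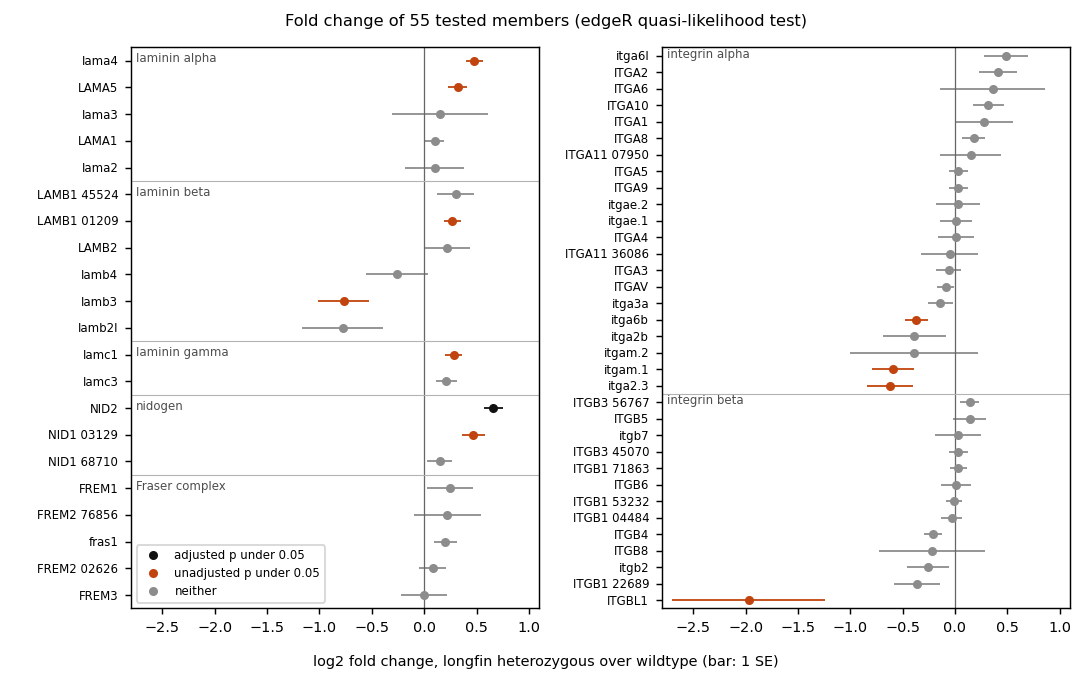
Log2 fold change of longfin heterozygous over wildtype for 55 of the 56 tested members, grouped by subfamily (y axis), with bars of 1 standard error from edgeR's fit. Digits after a symbol are the end of its Ensembl ID, given where several genes share the symbol. *NID2*, in black, is the 1 member past the adjusted threshold, and the 10 others at an unadjusted p under 0.05 are in orange.

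*NID2* (ENSDARG00000075707) had 9724 and 7505 reads in longfin libraries and 4784 and 6254 reads in wildtype libraries, or 438 and 386 CPM in longfin and 259 and 261 CPM in wildtype tips. Both longfin libraries were above both wildtype libraries, and the 2 wildtype values nearly coincided. The log2 fold change was 0.66 ± 0.09 (SE), and edgeR's quasi-likelihood test gave an adjusted p of 0.0478. With any 1 library left out, the log2 fold change lay between 0.57 and 0.75, and the gene did not pass the threshold. Such a fit leaves 1 library in a genotype, so it cannot tell whether the call depended on the library left out. The gene also missed the threshold when only genes with a mean count of at least 50 were tested (adjusted p = 0.055).

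The other 2 nidogen genes carry the symbol *NID1*, whose mammalian product joins the laminin gamma chain to collagen IV. ENSDARG00000103129 had 70.0 and 62.6 CPM in longfin tips and 51.7 and 44.3 CPM in wildtype tips. These groups did not overlap, and the log2 fold change was 0.47 ± 0.11 (adjusted p = 0.226). ENSDARG00000068710 had 180 and 195 CPM in longfin tips and 149 and 190 CPM in wildtype tips, which overlapped, with a log2 fold change of 0.15 ± 0.12 (adjusted p = 0.787). For every 100 reads of ENSDARG00000068710, *NID2* had 243 and 198 reads in longfin libraries and 173 and 138 in wildtype libraries, so the ratio between these 2 nidogen genes was also higher in longfin libraries. With groups of 2 against 2, a two-sided exact permutation test of such a ratio cannot give a p below 0.333. Whether the higher mesenchyme marker sum in longfin tips has a part in these nidogen values was not tested.

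Among laminin alpha chains, all 5 tested genes had fold changes above 0, against 49.7% of all genes tested. Only *lama4* and *LAMA5* were higher at an unadjusted p under 0.05 in edgeR, against 3.65% of all genes tested. None of the 5 passed adjustment in edgeR or limma voom, while DESeq2 called *lama4*. The *lama4* gene (ENSDARG00000020785) encodes a chain that in mammals is typical of vessel and mesenchymal basement membranes. It had 166 and 179 CPM in longfin tips and 122 and 126 CPM in wildtype tips, with no overlap. The log2 fold change was 0.48 ± 0.08, the adjusted p 0.101 with edgeR and 0.0135 with DESeq2. Endothelial marker genes, 14 in number and all with at least 1 read, summed to 117 and 134 CPM in longfin and 117 and 137 CPM in wildtype tips, which overlapped, and 8 of the 13 tested had fold changes above 0. Their part in the value of *lama4* was not tested.

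*LAMA5* (ENSDARG00000058543) encodes a chain of epithelial basement membranes that in zebrafish larvae is needed for the fin fold epidermis. It had 912 and 951 CPM in longfin tips and 787 and 710 CPM in wildtype tips, again without overlap. Its log2 fold change was 0.32 ± 0.09 (adjusted p = 0.31). *LAMA1* (ENSDARG00000102277), which encodes the main alpha chain of early embryonic basement membranes, had 199 and 218 CPM in longfin and 201 and 187 CPM in wildtype tips. Its libraries overlapped, and its log2 fold change was 0.10 ± 0.09 (adjusted p = 0.792). *lama2*, whose chain is typical of muscle, had a log2 fold change of 0.10 ± 0.28, and *lama3*, whose chain belongs to the epidermal laminin of hemidesmosomes in mammals, had 0.15 ± 0.46. The *lama3* counts were low, with 40 and 24 reads in longfin libraries and 37 and 21 reads in wildtype libraries.

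**Figure D2:**
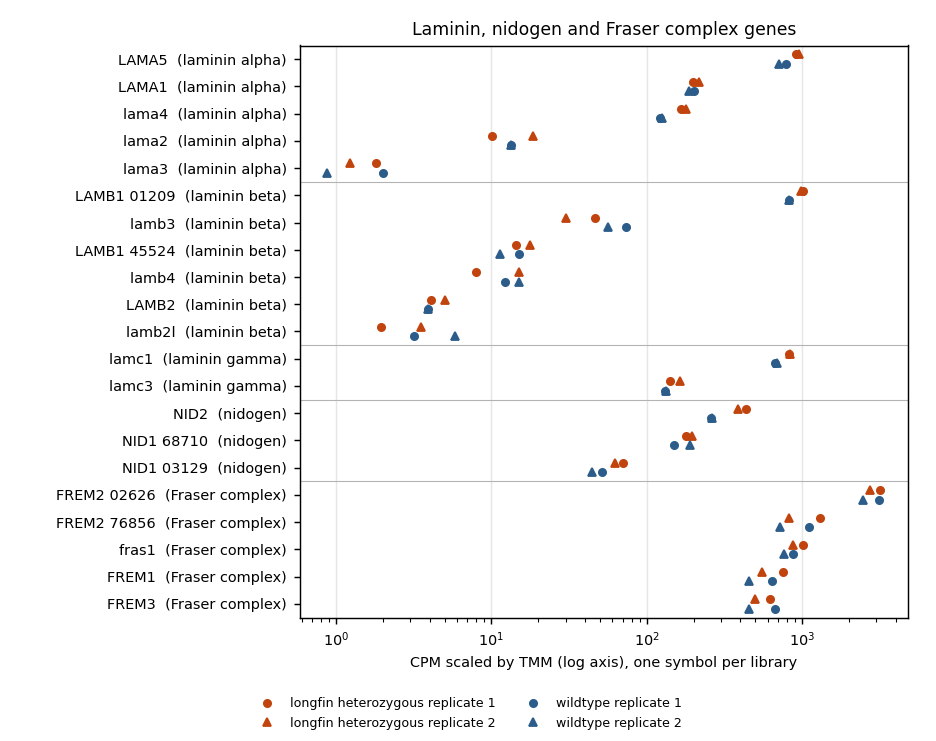
TMM-scaled CPM (x axis, log scale) of laminin, nidogen and Fraser complex genes (y axis) in each library, with longfin heterozygous libraries in orange and wildtype libraries in blue, circles for replicate 1 and triangles for replicate 2. The genes with both longfin libraries to the right of both wildtype libraries include *NID2*, *lama4*, *LAMA5*, the upper of the 2 *LAMB1* genes and *lamc1*. *lamb3* has them to the left. Of all genes tested, 39.8% do not overlap in either direction. Levels of different genes are not scaled for length.

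Laminin beta genes were split, with 3 of 6 fold changes above 0, against 49.7% of all genes tested. *LAMB1* ENSDARG00000101209, whose chain is shared by most laminins of embryonic and vascular basement membranes, had 1010 and 987 CPM in longfin tips and 824 and 826 CPM in wildtype tips. The 2 libraries of each genotype lay close together and the genotypes apart, with a log2 fold change of 0.27 ± 0.08 (adjusted p = 0.316). The second *LAMB1* gene, ENSDARG00000045524, had 14.5 and 17.7 CPM in longfin and 15.0 and 11.3 CPM in wildtype tips. These overlapped, and its log2 fold change was 0.30 ± 0.18 (adjusted p = 0.701).

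*lamb3* (ENSDARG00000059369) encodes the beta chain of the epidermal laminin that anchors hemidesmosomes in mammals. Its values ran opposite to those of *LAMB1*, with 46.1 and 30.1 CPM in longfin tips and 73.8 and 56.6 CPM in wildtype tips. The groups did not overlap, though the 2 libraries of each genotype were well apart. The log2 fold change was -0.77 ± 0.24, with an adjusted p of 0.422 in edgeR and 0.036 in DESeq2. For every 100 reads of *LAMB1* ENSDARG00000101209, *lamb3* had 4.57 and 3.05 reads in longfin libraries and 8.96 and 6.85 reads in wildtype libraries. The remaining beta genes had log2 fold changes of 0.22 ± 0.22 for *LAMB2*, -0.26 ± 0.30 for *lamb4* and -0.78 ± 0.39 for *lamb2l*, none past the threshold.

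Among laminin gamma genes, *lamc1* (ENSDARG00000036279), whose chain most laminins contain and which nidogen binds, had 818 and 836 CPM in longfin tips and 672 and 692 CPM in wildtype tips. The genotypes did not overlap, and the log2 fold change was 0.28 ± 0.08 (adjusted p = 0.314). Reads of *LAMB1* ENSDARG00000101209 per 100 reads of *lamc1* were nearly the same in every library, at 123 and 118 in longfin and 123 and 119 in wildtype libraries. *NID2* was not in a fixed ratio to *lamc1*, with 53.5 and 46.2 reads per 100 reads of *lamc1* in longfin and 38.5 and 37.7 in wildtype libraries. *lamc3* (ENSDARG00000093572) had 142 and 163 CPM in longfin and 131 and 132 CPM in wildtype tips, with a log2 fold change of 0.21 ± 0.10 (adjusted p = 0.566). These groups did not overlap either.

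Over the 14 laminin genes, 11 fold changes were above 0, 4 were higher and 1 lower by an unadjusted p under 0.05, and 0 passed edgeR's or limma voom's threshold, while DESeq2 called *lama4* and *lamb3*. Over all genes tested, 49.7% of fold changes were above 0, and 3.65% of genes were higher and 5.82% lower by an unadjusted p under 0.05. The summed CPM of the laminin genes was 3602 and 3698 in longfin tips and 3138 and 3017 in wildtype tips. Of the 21 mesenchyme marker genes, all tested, 18 had fold changes above 0, and 10 were higher and 1 lower by an unadjusted p under 0.05. None of the 21 passed edgeR's or limma voom's threshold, and DESeq2 called 1, *msx2b*. The part of this shift in the laminin values was not tested.

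In all 5 Fraser complex genes, replicate 1 was higher than replicate 2 in both genotypes. Fold changes between genotypes were above 0 for 4 of the 5, against 49.7% of all genes tested. *FREM2* ENSDARG00000102626 had 3180 and 2750 CPM in longfin tips and 3140 and 2480 CPM in wildtype tips. *FREM2* ENSDARG00000076856 had 1310 and 819 CPM in longfin tips and 1100 and 723 CPM in wildtype tips. Replicate 1 was the higher library in both genotypes for both genes. Their log2 fold changes between genotypes were 0.08 ± 0.13 (adjusted p = 0.911) and 0.22 ± 0.32 (adjusted p = 0.895), and both had the opposite sign without longfin heterozygous replicate 1, at -0.03 and -0.15, and without wildtype replicate 2, at -0.08 and -0.05.

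*FREM1* and *FREM3*, which encode further proteins of the complex, were likewise higher in replicate 1 of both genotypes. *FREM1* had 749 and 549 CPM in longfin tips and 635 and 457 CPM in wildtype tips, and *FREM3* had 624 and 495 CPM in longfin and 669 and 453 CPM in wildtype tips. *fras1* had 1010 and 877 CPM in longfin and 870 and 768 CPM in wildtype tips, and was the 1 gene of the 5 whose genotypes did not overlap, with a log2 fold change of 0.20 ± 0.11 (adjusted p = 0.643). For the 5 genes the log2 ratio of replicate 1 to replicate 2 was 0.20 to 0.68 in longfin and 0.18 to 0.61 in wildtype libraries. Without a replicate term, none of the 5 had an unadjusted p under 0.05 in edgeR, and none was called by edgeR, DESeq2 or limma voom.

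Other members varied between the libraries of a genotype as well. Of the 53 members with at least 10 reads in every library, 16 were higher in replicate 1 of both genotypes. A further 16 were lower in replicate 1 of both, and 21 showed neither. The same count was not made over all genes, so these numbers have no background beside them. Log2 differences between replicates 1 and 2 correlated across genotypes at 0.37 over 56 members and 0.22 over all 18366 genes tested. The integrin gene *ITGA11* ENSDARG00000007950, whose mammalian product is a receptor for fibrillar collagen on fibroblasts, stood with the Fraser complex genes, at log2 ratios of 0.67 in longfin and 0.51 in wildtype libraries. On the other side was *lamb2l*, at -0.85 in longfin and -0.87 in wildtype. By contrast, *lamc1* and *LAMB1* ENSDARG00000101209 differed by at most 0.04 in size between the libraries of a genotype. The mesenchyme genes *and3* (0.66 and 0.81) and *twist1a* (0.60 and 0.57) were also higher in replicate 1, and the collagen IV genes *COL4A1* (-1.09 and -0.73) and *COL4A2* (-0.84 and -0.80) lower, in longfin and wildtype alike. These genes and *ITGA11* were picked after their values were seen. The labels do not say that a replicate number marks a shared day or clutch.

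**Figure D3:**
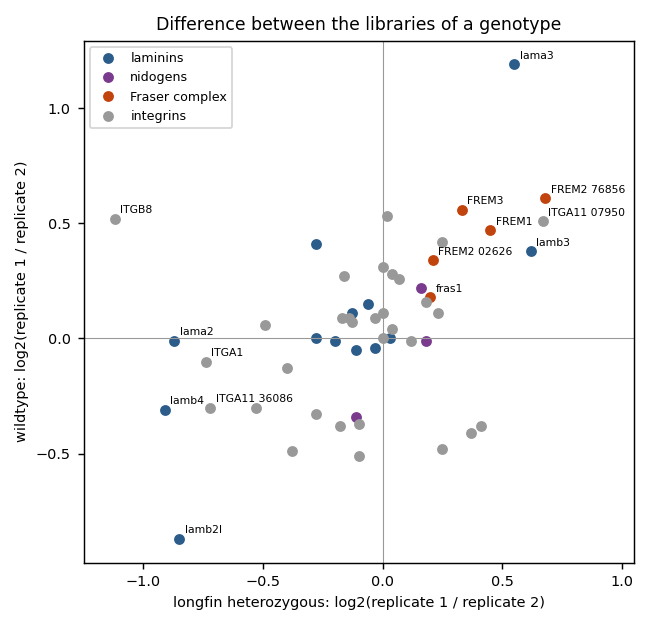
Log2 ratio of replicate 1 to replicate 2 in longfin heterozygous (x axis) and wildtype (y axis) libraries for 52 of the 53 members with at least 10 reads in each library, coloured by family. The 5 Fraser complex genes lie in the upper right, at 0.20 to 0.68 in longfin and 0.18 to 0.61 in wildtype libraries.

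Of the 21 tested integrin alpha genes, 12 had fold changes above 0 and 9 below. None passed the threshold in edgeR, DESeq2 or limma voom. At an unadjusted p under 0.05 in edgeR there were 0 higher and 3 lower, against 3.65% and 5.82% of all genes tested. *ITGAV* (ENSDARG00000006314), whose product pairs with several beta subunits and binds fibronectin and related matrix proteins, had 896 and 824 CPM in longfin tips and 910 and 917 CPM in wildtype tips. The longfin values lay just under the wildtype values, with a log2 fold change of -0.09 ± 0.08 (adjusted p = 0.821).

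*itga6b* (ENSDARG00000069946) belongs to the laminin-binding subunits and in mammals *ITGA6* pairs with *ITGB4* in hemidesmosomes, the junctions that fix basal epidermal cells to the basement membrane. It had 226 and 220 CPM in longfin tips and 317 and 260 CPM in wildtype tips. The longfin libraries were close together and both under the wildtype libraries. The log2 fold change was -0.37 ± 0.11 (adjusted p = 0.334). The gene that carries the symbol *ITGA6* (ENSDARG00000042282) was scarcely detected, with 15 and 20 reads in longfin and 8 and 20 reads in wildtype libraries, and had a log2 fold change of 0.36 ± 0.50.

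*ITGB4* (ENSDARG00000028507), the beta subunit of hemidesmosomes, had 276 and 311 CPM in longfin tips and 351 and 329 CPM in wildtype tips. It too was lower in both longfin libraries, with a log2 fold change of -0.21 ± 0.09, an unadjusted p of 0.0556 and an adjusted p of 0.545. Of 7 other hemidesmosome genes tested, 3 had fold changes above 0, up to 0.08, and 4 below, with a median of -0.19. The genotypes overlapped in the 3 and did not overlap in the 4, where 39.8% of all genes tested do not overlap. Among the 4 were the plectin genes *pleca* (-0.23 ± 0.12) and *plecb* (-0.19 ± 0.10), named after their values were seen. Of the 7, 0 passed edgeR's or limma voom's threshold, and 1 was lower by an unadjusted p under 0.05, which DESeq2 also called. This was *col17a1a*, one of the zebrafish genes for the transmembrane collagen XVII, with 14 and 15.7 CPM in longfin and 24.8 and 27.3 CPM in wildtype tips and a log2 fold change of -0.81 ± 0.13 (adjusted p = 0.0669) in edgeR. Its copy *col17a1b* had 1060 and 1350 CPM in longfin and 1100 and 1220 CPM in wildtype tips, for a log2 fold change of 0.05 ± 0.13.

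Marker genes of basal epidermis, the layer that carries hemidesmosomes, numbered 7, all with reads. They summed to 11400 and 12500 CPM in longfin and 12000 and 14600 CPM in wildtype tips, which overlapped. Most of this sum was the single gene *krt5*. Fold changes were above 0 for 2 of the 7 and below for 5, with a median of -0.14. Only *cdh1*, at -0.20 ± 0.10, had genotypes that did not overlap, where 39.8% of all genes tested do not overlap. Of the 7, 0 had an unadjusted p under 0.05 in edgeR or a call in DESeq2 or limma voom. Of 10 tested superficial epidermis marker genes, 2 fell in longfin tips by edgeR's test (*KLF4* and *ANXA1*), DESeq2 called *agr1* and *PPL* lower as well, 8 were lower by an unadjusted p under 0.05 in edgeR, and 9 had fold changes below 0. The part of the epidermal values in those of *lamb3*, *itga6b* and *ITGB4* was not tested.

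**Figure D4:**
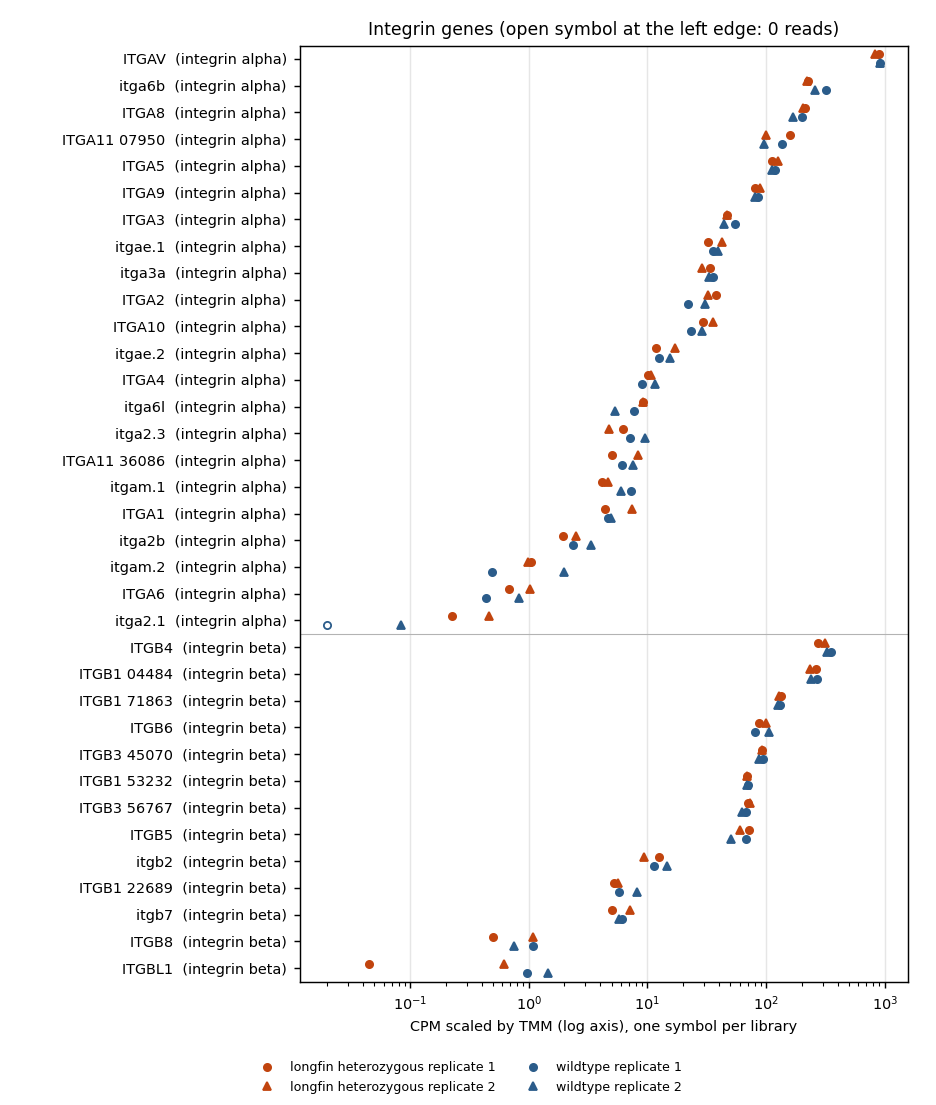
TMM-scaled CPM (x axis, log scale) of the 35 integrin genes (y axis) in each library, with colours and symbols for genotype and replicate as in the legend. Of the 34 tested genes, 5 have both longfin libraries to the right of both wildtype libraries, *ITGA2* among them, and 8 have them to the left, *itga6b* and *ITGB4* among them, where 39.8% of all genes tested do not overlap in either direction. The open symbol marks *itga2.1* at 0 reads in wildtype replicate 1.

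The other laminin-binding alpha genes gave no call. *ITGA3* (ENSDARG00000012824) had 47.2 and 47.3 CPM in longfin and 54.5 and 44.0 CPM in wildtype tips, and *itga3a* 33.7 and 28.6 CPM in longfin and 35.8 and 33.1 CPM in wildtype tips. *itga6l* stood at 9.23 and 9.10 CPM in longfin and 7.78 and 5.38 CPM in wildtype tips, with a log2 fold change of 0.49 ± 0.21 (adjusted p = 0.532).

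Subunits that in mammals bind fibronectin, tenascin and nephronectin gave no call either. *ITGA5*, the fibronectin receptor subunit, had 113 and 125 CPM in longfin and 120 and 113 CPM in wildtype tips. *ITGA9*, which binds tenascin, had a log2 fold change of 0.03 ± 0.09. *ITGA8*, a mesenchymal receptor for nephronectin, had 0.18 ± 0.11, and its genotypes did not overlap, at 214 and 204 CPM in longfin and 202 and 169 CPM in wildtype tips. *ITGA4*, shared by leukocytes and mesenchyme, had 0.01 ± 0.17.

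Collagen-binding alpha genes varied in sign. *ITGA2* (ENSDARG00000062974) had 38.2 and 32.1 CPM in longfin tips and 22.0 and 30.8 CPM in wildtype tips, for a log2 fold change of 0.41 ± 0.18 (adjusted p = 0.545). Its relative *itga2.3* (ENSDARG00000086838) had 6.17 and 4.78 CPM in longfin and 7.19 and 9.56 CPM in wildtype tips, for a log2 fold change of -0.62 ± 0.22 (adjusted p = 0.448). Both genes had genotypes that did not overlap, in opposite directions. Reads shared by such close copies are uncertain, because reads without a unique alignment were not counted. *ITGA10* and *ITGA1* had log2 fold changes of 0.32 ± 0.15 and 0.28 ± 0.27, and the 2 *ITGA11* genes 0.15 ± 0.29 (ENSDARG00000007950) and -0.05 ± 0.27 (ENSDARG00000036086).

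Reads of the leukocyte and thrombocyte integrins ran from 9 (*itgam.2*, wildtype replicate 1) to 938 (*itgae.1*, wildtype replicate 2) per library. *itgam.1* (ENSDARG00000002956), of a family found on myeloid cells in mammals, had 4.14 and 4.63 CPM in longfin tips and 7.24 and 6.01 CPM in wildtype tips, with a log2 fold change of -0.59 ± 0.20 (adjusted p = 0.424). Its copy *itgam.2* had 23 and 19 reads in longfin and 9 and 48 reads in wildtype libraries, and a log2 fold change of -0.39 ± 0.61, which was 1.04 without wildtype replicate 2. The partner gene *itgb2* had 12.4 and 9.36 CPM in longfin and 11.3 and 14.7 CPM in wildtype tips. The log2 fold changes of *itgae.1*, *itgae.2* and *itgb7*, of families that mark lymphocytes in mammals, were 0.01, 0.03 and 0.03. *itga2b*, a thrombocyte gene in zebrafish, was at -0.39 ± 0.30. Of 18 leukocyte marker genes 17 had at least 1 read, with *lyz* at 0. They summed to 1050 and 1090 CPM in longfin and 1320 and 1210 CPM in wildtype tips without overlap. Most of the sum came from *cd74a* and *cd74b*, with log2 fold changes of -0.42 ± 0.11 and -0.23 ± 0.09. Of the 16 tested leukocyte markers, 7 had fold changes above 0 and 9 below, with a median of -0.02. The sum thus does not stand for the markers as a whole. The part of the leukocyte marker values in that of *itgam.1* was not tested.

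Of 13 integrin beta genes, 6 had fold changes above 0 and 7 below. None passed the threshold in edgeR, DESeq2 or limma voom, and 1, *ITGBL1*, was lower by an unadjusted p under 0.05. The 4 genes with the symbol *ITGB1* encode the subunit shared by most matrix receptors. ENSDARG00000104484 had 264 and 234 CPM in longfin and 269 and 240 CPM in wildtype tips, and ENSDARG00000071863 had 133 and 129 CPM in longfin and 130 and 126 CPM in wildtype tips. ENSDARG00000053232 was the steadiest of the 4, at 69.3 and 69.3 CPM in longfin and 69.9 and 69.7 CPM in wildtype tips. The genotypes of these 3 genes differed by log2 fold changes of -0.03 ± 0.10, 0.03 ± 0.08 and -0.01 ± 0.08, so any difference was within the error of the fit. The fourth, ENSDARG00000022689, had 5.27 and 5.66 CPM in longfin and 5.73 and 8.18 CPM in wildtype tips, for a log2 fold change of -0.36 ± 0.22 (adjusted p = 0.701).

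Beta subunits that pair with *ITGAV* were likewise close between genotypes. The log2 fold changes were 0.03 ± 0.09 and 0.14 ± 0.09 for the *ITGB3* genes ENSDARG00000045070 and ENSDARG00000056767, 0.14 ± 0.16 for *ITGB5*, 0.01 ± 0.14 for *ITGB6*, an epithelial activator of latent TGF-beta in mammals, and -0.22 ± 0.51 for *ITGB8*. *ITGBL1* (ENSDARG00000040985) encodes a secreted protein with repeats like those of integrin beta subunits and is not itself a receptor subunit. It had 1 and 12 reads in longfin libraries and 18 and 35 reads in wildtype libraries, with a log2 fold change of -1.97 ± 0.73 (adjusted p = 0.46). With so few reads this value depended on single libraries, from -4.61 to -1 with 1 library left out.

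Other basement membrane components were nearly level between genotypes. Of 27 tested genes, 13 had fold changes above 0 and 14 below, with a median of 0.00 and 0 calls in edgeR, DESeq2 or limma voom. By an unadjusted p under 0.05 in edgeR, 1 was higher and 1 lower, against 3.65% and 5.82% of all genes tested. The higher one was the fibulin gene *FBLN1*, at 123 and 121 CPM in longfin and 94.8 and 92.4 CPM in wildtype tips, for a log2 fold change of 0.38 ± 0.08 (adjusted p = 0.167). The lower one was the lysyl oxidase-like gene *loxl2a*, at -0.79 ± 0.30 with an adjusted p of 0.497. The collagen IV genes *col4a5* and *col4a6* had log2 fold changes of 0.06 ± 0.09 and -0.01 ± 0.08, and the perlecan gene *HSPG2* 0.12 ± 0.09. Wide errors left the collagen IV genes *COL4A1* and *COL4A2* undetermined, at -0.09 ± 0.45 and -0.19 ± 0.39. These genes were chosen after their values were seen because their products assemble with laminin and nidogen.

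Non-integrin laminin receptors, 6 genes, had 0 calls in edgeR, DESeq2 or limma voom and 1 gene lower by an unadjusted p under 0.05, the syndecan gene *sdc4*, with a log2 fold change of -0.26 ± 0.08 (adjusted p = 0.367). Other integrin ligands had 0 of 25 tested genes past the threshold in edgeR or limma voom. By an unadjusted p under 0.05 in edgeR, 2 were higher and 3 lower, against 3.65% and 5.82% of all genes tested. The 4 of lowest p were *THBS4* (ENSDARG00000102777), a thrombospondin gene, at -0.83 ± 0.14 with an adjusted p of 0.0744, *TNC* (ENSDARG00000078362), a tenascin gene, at 0.38 ± 0.10, *THBS1* (ENSDARG00000103775) at -0.36 ± 0.09 and *ccn2b* at -1.22 ± 0.37, and DESeq2 called the first of these.

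Inside the cell, 50 tested genes of the integrin adhesion complex had a median log2 fold change of 0.06, with 32 above 0 and 18 below. None passed in edgeR, DESeq2 or limma voom. By an unadjusted p under 0.05 in edgeR, 3 of the 50 were higher and 1 lower. Of all genes tested, 9.47% had an unadjusted p under 0.05 in either direction. The 4 genes were thus not set apart from the background by their number. They included the focal adhesion kinase gene *PTK2* at 0.28 ± 0.09, *sharpin*, an integrin inhibitor gene in mammals, at 0.38 ± 0.15, and *KANK1* (ENSDARG00000060584) at -2.03 ± 0.62, the last at under 1 CPM in every library. The adjusted p-values of these genes in edgeR were 0.364 to 0.473.

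The remaining cell type lists overlapped between genotypes in summed CPM, with 2 exceptions. These lists were osteoblast (2210 and 2590 CPM in longfin, 2350 and 3170 CPM in wildtype), thrombocyte (63.1 and 32.2 in longfin, 81.7 and 37.8 in wildtype), lymphocyte (9.32 and 17.4 in longfin, 8.54 and 16.0 in wildtype), red blood cell (96.4 and 89.8 in longfin, 80.6 and 120 in wildtype) and nerve and glia (83.2 and 75.5 in longfin, 84.8 and 69.6 in wildtype). One exception was skeletal muscle, at 98.8 and 108 CPM in longfin and 133 and 110 CPM in wildtype tips. The other was smooth muscle and pericytes, at 259 and 280 CPM in longfin and 281 and 296 CPM in wildtype tips. Single genes made up most of both sums, *MYOG* in the first and *TAGLN* (ENSDARG00000033466) in the second. Fold changes were above 0 for 2 of 6 tested skeletal muscle genes and 2 of 5 tested smooth muscle and pericyte genes. Most of the thrombocyte sum was likewise the single gene *f5*. None of the genes in these lists or in the endothelial and leukocyte lists passed edgeR's, DESeq2's or limma voom's threshold. Unadjusted p-values under 0.05 in edgeR were found for 1 higher and 1 lower endothelial gene and 1 higher and 2 lower leukocyte genes. They were also found for 1 lower skeletal muscle gene and 0 genes of the other lists in this paragraph. Over all genes tested the share was 9.47%.

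The fold changes of 9 members, *NID2* and the 8 that follow, kept their sign under all 12 alternatives run. The 9 were picked by hand and are not the set at an unadjusted p under 0.05 in edgeR. In all 9 the genotypes did not overlap, so leaving out 1 library could hardly change the sign, and the ranges speak to size only. With 1 library left out, *lama4* lay between 0.42 and 0.53 on the log2 scale, *LAMA5* between 0.24 and 0.39, *lamc1* between 0.26 and 0.30, *LAMB1* ENSDARG00000101209 between 0.26 and 0.29, *NID1* ENSDARG00000103129 between 0.36 and 0.58, *lamb3* between -1.11 and -0.50, *itga6b* between -0.51 and -0.22 and *ITGB4* between -0.30 and -0.13. Of these 8 genes, *lamb3* had the widest range. Members at an unadjusted p under 0.05 in edgeR that were not among the 9 were *itga2.3*, *itgam.1* and *ITGBL1*. Their ranges with 1 library left out were -0.81 to -0.39, -0.73 to -0.46 and -4.61 to -1. Keeping the sign was not particular to the 9 members, since *LAMA1*, with a log2 fold change of 0.10, also kept it under all 12 alternatives.

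**Figure D5:**
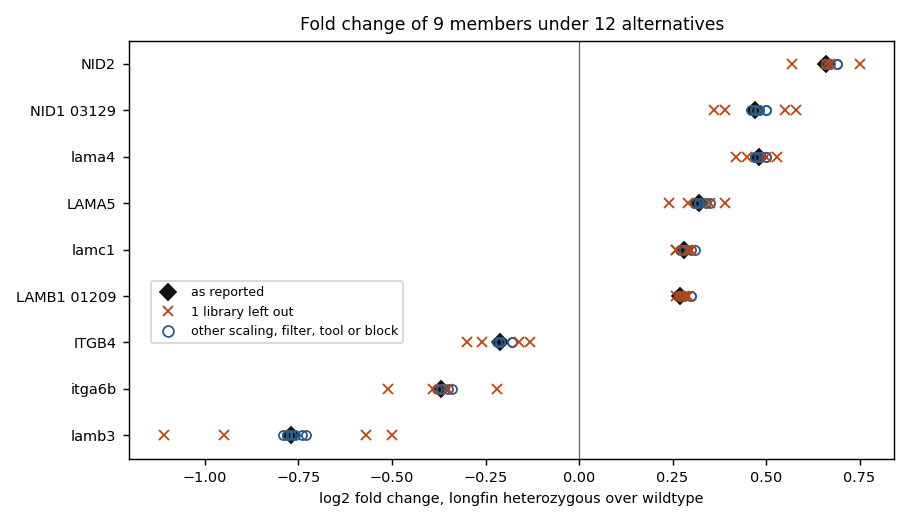
Log2 fold change of longfin heterozygous over wildtype (x axis) for 9 members (y axis), as reported (black diamonds), with 1 library left out (orange crosses) and under other scalings, filters, tools or a replicate block (blue circles). The 9 were picked by hand, and *ITGBL1*, with values from -4.61 to -1, is not drawn. All values of a gene shown lie on the same side of 0, and those of *lamb3* span -1.11 to -0.50. In all 9 the genotypes did not overlap, so leaving out 1 library could hardly change the sign.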

How the data were processed

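RNA-seq was made from 4 libraries of regenerating caudal fin tip, 2 per genotype, with genotype and replicate number taken from the titles and genotype labels. The deposited values are raw counts of reads per Ensembl gene, made by the authors. Per the submitters' processing notes they used TopHat2 and HTSeq with the GRCz11 build; versions, annotation release and strand setting were not given in the sources used here. Without the strand setting, reads of overlapping antisense genes may be mixed. Each library lists 31901 gene IDs; an unnamed row that equals their sum and the 5 HTSeq classes were left out of totals and tests. Of all reads in gene rows and classes, 28.7 to 41.9% were not uniquely aligned, so reads shared by near-identical copies could be lost or split.

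Gene symbols came from a table that names 29178 of the IDs and prints the human symbol in capitals for many zebrafish genes. The capital symbols NID1, NID2, FREM1, FREM2 and FREM3 were read as the zebrafish names that define the set, and *nid2b*, *frem1b*, *ITGB1BP1* and *itgb3bp* were left out of it.

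Counts were tested in R 4.3.3 with edgeR 4.0.16: genes were kept by filterByExpr at a minimum count of 10 and a minimum total of 15, and scaled by TMM, followed by glmQLFit (robust, newer fit) and a two-sided glmQLFTest for genotype without a replicate term, Benjamini-Hochberg adjusted over all 18366 genes tested at a threshold of 0.05. The procedure was tested on simulated counts first. CPM values are scaled by TMM (factors 0.945 to 1.04). The SE of a fold change was derived from it and the test's F statistic. Alternatives were other scalings, filters, DESeq2 1.42.0, limma voom (limma 3.58.1), a replicate block and leaving out each library. The members and the 17 lists of other genes (195 of 219 entries matched) were chosen with earlier results of these data known. Named with every library's value are members past the threshold, members at an unadjusted p under 0.05, the 2 of highest mean CPM in each subfamily and their duplicate copies. From the other lists the rule was to name genes past the threshold, up to 4 at an unadjusted p under 0.05, or else the 2 of highest CPM. Not all of these are given with library values, and for the cell type marker lists the rule was not followed. Values by library of *FREM1*, *FREM3*, *fras1*, *lama3*, *ITGA3*, *itga3a*, *itga6l*, *ITGA5*, *ITGA8*, *itgb2*, *itga2.1* and *col17a1b* lie outside these rules and were chosen after values were seen. A few genes enter the counts, sums and medians but are not reported here singly or drawn. No transcript lengths were used, so levels of different genes are not compared.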

Additional observations from a re-analysis of the deposited data

How the results depend on the processing

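The count of all genes past the threshold was 74 (20 higher, 54 lower), against 219 (64 higher, 155 lower) with library size only, 130 (32 and 98) without the low count filter, 291 (77 and 214) with DESeq2, and 1 to 163 with 1 library left out (0 to 25 higher, 1 to 138 lower). Members past the threshold numbered 1, against 0 with a mean count of at least 50, 3 with DESeq2 (*NID2*, *lama4*, *lamb3*) and 0 with any 1 library left out. By unadjusted p under 0.05, 6 members were higher and 5 lower, with 10 higher without the low count filter, 3 lower with DESeq2, and 4 to 9 higher and 3 to 6 lower with 1 library left out.

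With the replicate number as a block, 794 genes passed (245 higher, 549 lower), 9 of them members: *NID2*, *NID1* ENSDARG00000103129, *lama4*, *LAMA5*, *LAMB1* ENSDARG00000101209, *lamc1*, *FREM1*, *itga6b* and *lamb3*. By unadjusted p under 0.05, 13 members were higher and 7 lower. The log2 differences between replicates 1 and 2 correlated across genotypes at 0.22 over 18366 genes and 0.37 over 56 members, but the labels give no shared day or clutch, so the numbers are not taken to pair the samples.

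*ITGB1* ENSDARG00000053232 changed sign with upper quartile scaling or library size only (both 0.02). With 1 library left out, signs changed for *FREM2* ENSDARG00000102626 (-0.08 to 0.26), *FREM2* ENSDARG00000076856 (-0.15 to 0.56), *itgam.2* (-0.99 to 1.04), *NID1* ENSDARG00000068710 (-0.01 to 0.33) and *ITGB1* ENSDARG00000104484 (-0.12 to 0.05). The cause was not tested. Leaving out a library leaves 1 in its genotype, which is then assumed to vary like the other genotype. Standard errors were wider for some members with few reads, at 0.73 for *ITGBL1* against 0.08 for *lamc1*. Many reads did not always go with a small error, since *FREM2* ENSDARG00000076856 had 0.32 with 15938 reads or more in every library.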
